A study of Mus musculus with 6 samples.

Results

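Fgf9, its relatives and the FGF receptors were described in MIN6-4N, a mouse pancreatic beta cell line, on 6 arrays. The set holds 10 genes of the 20416 on the arrays: the secreted ligands Fgf9 and Fgf1, the intracellular family members Fgf12, Fgf13 and Fgf14, the receptors Fgfr1, Fgfr2, Fgfr3 and Fgfr4, and the co-receptor Klb. All 10 were found by symbol, with 138 probe sets between them, and no filter on low values was applied. They were chosen by their array values, the clone difference of Fgf9 and the levels of the family, so for all 10 genes the levels and differences are given as a description, without a test or a call. The 6 arrays hold 3 independent cultures of 1 clone with the empty plasmid pcDNA3.1 (vector) and 3 of 1 clone with pcDNA3.1-mMeg3, which expresses the mouse long non-coding RNA gene Meg3 (Meg3). Both clones were nucleofected, selected for 5 weeks in G418 at 750 µg/ml and grown in 15% serum with 500 µg/ml G418, a neomycin-class antibiotic. The labels' sample descriptions also mention sorted subpopulations, which no protocol describes. The Meg3 clone is called Meg-3 in the sample titles and Meg-5 in the extraction protocol, so the labels do not settle which clone was on the arrays. As each group is 1 clone, the effect of the plasmid and other differences between the clones cannot be told apart, and the errors measure the spread between cultures.

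Fibroblast growth factors such as FGF9 and FGF1 are secreted and bind, together with heparan sulphate, the receptor tyrosine kinases FGFR1 to FGFR4, which signal through the adaptor FRS2 to the MAP kinase cascade. FGF9 acts best on the IIIc splice forms of FGFR2 and FGFR3, while FGF1 binds all receptors. FGF12, FGF13 and FGF14 are not secreted in the classical way and are best known for binding voltage-gated sodium channels. Beta-Klotho, the product of Klb, lets the hormone-like members FGF21 and FGF15 act on FGFR1 and FGFR4.

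The 250 bases before the RefSeq start of Fgf9 and before the outermost of the 4 RefSeq starts of Fgf12 are shown because these were the 2 genes of the set whose values separated the clones. Capitals mark the longest stretch of purines alone or pyrimidines alone. The windows (GRCm38.p6) are chr14:58072436-58072685, plus strand, and chr16:28753244-28753493, minus strand.
Fgf9: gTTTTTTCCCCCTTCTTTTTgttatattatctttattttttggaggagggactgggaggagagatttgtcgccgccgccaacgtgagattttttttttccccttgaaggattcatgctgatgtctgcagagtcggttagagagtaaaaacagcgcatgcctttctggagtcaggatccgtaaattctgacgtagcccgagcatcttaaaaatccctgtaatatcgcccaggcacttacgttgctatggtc
Fgf12: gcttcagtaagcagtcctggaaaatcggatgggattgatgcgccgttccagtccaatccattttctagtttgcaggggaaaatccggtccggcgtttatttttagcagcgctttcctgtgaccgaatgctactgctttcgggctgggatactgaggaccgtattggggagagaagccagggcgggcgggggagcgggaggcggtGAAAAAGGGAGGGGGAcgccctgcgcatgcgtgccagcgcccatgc
The stretch has 19 pyrimidines in the Fgf9 window, and 7.16% of 32841 RefSeq windows of this length hold one as long on either strand. It has 16 purines in the Fgf12 window, and 13.8% of windows hold one as long. The windows before the other 3 starts of Fgf12 hold stretches of 9, 11 and 8 bases, which 79.4%, 50.6% and 91.6% of windows reach, so the window shown is the one with the longest. The letters TATAAA, on either strand, occur in neither window and in 12.4% of all windows. The GC box letters GGGCGG, on either strand, occur in the Fgf12 window shown and in 2 of its other 3, not in the Fgf9 window, and in 32.7% of all windows. CG pairs number 11 in the Fgf9 window and 18 in that of Fgf12, with a median of 6 over all windows. In all, 8 of the 10 genes had windows. The arrays do not show which start is used, and binding was not measured.

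Levels are log2 values, averaged over the probe sets of a gene, and precision is limited by the number of arrays. The arrays vector replicate 2 and Meg3 replicate 1 stood apart, with probe set values scattered around the median of the other arrays with an SD of 0.86 and 0.64, against 0.43 to 0.48 for the other 4. For the 10 genes of the set, differences without these 2 arrays are given beside the main ones. Meg3 itself, the check of the labels, averaged 5.84 ± 0.19 with the empty plasmid and 7.56 ± 0.34 with the Meg3 plasmid (SD, n = 3 each). All 12 beta cell markers were above background, with Ins2 at 12.54 and 12.60 and sums of 122.57 to 124.91 and 122.95 to 124.51, whereas 1 of 6 endothelial and 1 of 6 macrophage markers were. The summed log2 values of these lists overlapped between the clones, at 32.44 to 33.72 and 32.81 to 33.39 for endothelial markers and at 34.12 to 34.30 and 34.06 to 34.37 for macrophage markers. Gcg, the glucagon gene of alpha cells, also stood far above background, at 12.82 and 12.66, and 5 of 6 markers of other islet endocrine cells exceeded it (sums 46.05 to 46.29 and 46.28 to 46.83). Of the mesenchymal markers 4 of 8 were above background (sums 45.97 to 47.64 and 46.27 to 46.92), and of the acinar and duct markers 6 of 8 (57.03 to 57.64 and 56.78 to 57.38). Background here is the 95th percentile of 1043 olfactory and vomeronasal receptor genes on the same arrays, a log2 value of 5.85. Of all genes 66.4% exceeded it. Of all probe sets with 1 symbol 71.2% did, against 8.59% of the probe sets of these receptor genes. Values of different genes also depend on their probes, so genes are set against this line and not ranked against each other.

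Fgf9, the secreted ligand, stood higher in the Meg3 clone. Its log2 values were 6.39, 6.38 and 6.09 in the vector cultures and 7.77, 7.28 and 7.47 in the Meg3 cultures. Every Meg3 culture was above every vector culture, and the closest pair of cultures from the 2 clones was 0.89 apart. The means of 6.29 ± 0.17 and 7.51 ± 0.25 (SD, n = 3 each) lie 1.22 apart on the log2 scale (SE 0.16), which is 2.33-fold. Fgf9 stood above the background line by 0.43 in vector and by 1.65 in Meg3 cultures. Without the 2 arrays that stood apart the difference was 1.14 (SE 0.12), and leaving out 1 array at a time gave 1.09 to 1.33. In bulk RNA, more cells with Fgf9 mRNA and more Fgf9 mRNA per cell cannot be told apart.

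The probe sets of Fgf9 differed in one direction. All 8 were higher in the Meg3 clone, by 0.19 to 2.24 on the log2 scale with a median of 1.24, and for 5 of them the clones did not overlap. The brightest read 7.69, 7.83 and 7.92 with the vector and 9.43, 9.34 and 9.39 with Meg3, a difference of 1.57. The sixth in brightness read 4.98, 5.80 and 4.44 against 7.13, 7.37 and 7.44, so it lay under the background line in every vector culture and above it in every Meg3 culture. The dimmest scattered widely within both clones, from 3.51 to 5.35 and from 4.06 to 7.31. Vector replicate 2 was the highest of its group for the second probe set, at 8.23 against 7.40 and 7.38, and there the clones overlapped. Probe sets of a gene read the same cultures and are not replicates. The share of all probe sets without overlap was not counted, so nothing is read from such counts for this or other genes.

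**Figure D1:**
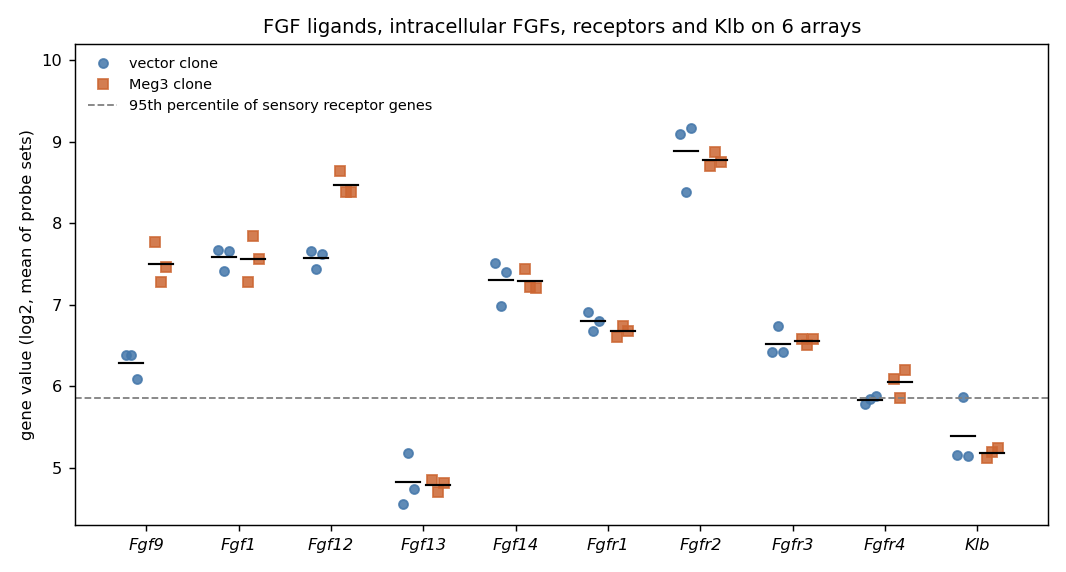
Log2 value of each gene (mean of its probe sets, vertical axis) on the 3 vector arrays (circles) and the 3 Meg3 arrays (squares), with group means as black bars and the background of 5.85 as a dashed line. Fgf9 and Fgf12 are the genes whose Meg3 cultures all lie above the vector cultures, and Fgf13 and Klb have group means under the line in both clones.

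Fgf1, the other secreted ligand of the set, was well above background in both clones and overlapped between them. It read 7.67, 7.42 and 7.66 in the vector cultures and 7.28, 7.85 and 7.56 in the Meg3 cultures. The difference was -0.02 (SE 0.17), with a 95% interval of -0.40 to 0.36, and 0.04 (SE 0.11) without both arrays. Of its 8 probe sets 4 were higher and 4 lower, and the brightest 3 read 8.70 or more in all 6 cultures.

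Fgf12 was the other gene whose clones did not overlap. Its values were 7.66, 7.44 and 7.62 in the vector cultures and 8.64, 8.38 and 8.38 in the Meg3 cultures. The means of 7.57 ± 0.12 and 8.47 ± 0.15 (SD, n = 3 each) lie 0.89 apart on the log2 scale (SE 0.13), which is 1.86-fold, and 0.74 apart (SE 0.09) without both arrays. Leaving out 1 array at a time gave 0.81 to 0.94. All 10 probe sets stood above background in both clones, 9 were higher in the Meg3 clone, and for 8 the clones did not overlap. Probe sets differed unequally: 6 of them, second to seventh in brightness, were higher by 1.06 to 1.53, whereas the brightest was higher by 0.47, at 9.89, 9.81 and 10.12 against 10.36, 10.37 and 10.48. The dimmest went the other way, at means of 6.41 (vector) and 6.11 (Meg3), with overlap. Positions of probe sets along the transcripts were not used here, so the splice forms behind them were not analysed.

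Fgf14, of the same intracellular group, was above background in both clones without a separation. It read 7.51, 6.99 and 7.40 in the vector cultures and 7.44, 7.22 and 7.21 in the Meg3 cultures. The difference was -0.01 (SE 0.16; 95% interval -0.38 to 0.36). Vector replicate 2 was the lowest culture, and without both arrays the difference was -0.24 (SE 0.10). Its 12 probe sets ran from a mean of 3.57 to 10.58.

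Fgf13 was under the background line in both clones, at 4.56, 5.18 and 4.74 against 4.85, 4.70 and 4.82. Its brightest probe set did exceed it, at means of 7.56 (vector) and 7.61 (Meg3), and 3 of 9 probe sets exceeded it in the vector clone. The gene difference was -0.04 (SE 0.17), and 0.11 (SE 0.11) without both arrays, so its sign turned.

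Fgfr2, a receptor of FGF9 in its IIIc form, stood above background in both clones and did not separate them. Splice forms of the receptors were not analysed, so which form of Fgfr2 was present is not shown. The log2 values of Fgfr2 were 9.10, 8.38 and 9.17 in the vector cultures and 8.70, 8.88 and 8.75 in the Meg3 cultures. Vector replicate 2 was the lowest of all 6, and 20 of 23 probe sets exceeded background in each clone. The brightest probe set averaged 12.91 ± 0.09 in vector and 12.79 ± 0.05 in Meg3 cultures (SD, n = 3 each). The difference of the gene was -0.10 (SE 0.21; 95% interval -0.58 to 0.37), and without both arrays it was -0.32 (SE 0.10). In that direction 17 of 23 probe sets were lower in the Meg3 clone, with the clones apart for 1 of them.

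Fgfr1, a receptor also described in beta cells, exceeded background with 18 of 22 probe sets in each clone. It read 6.91, 6.68 and 6.81 in the vector cultures and 6.60, 6.75 and 6.67 in the Meg3 cultures, which overlapped. The difference was -0.12 (SE 0.12; 95% interval -0.39 to 0.15), and -0.15 (SE 0.10) without both arrays. Its probe sets disagreed: the fifth in brightness was lower by 1.05, with Meg3 replicate 1 at 5.44 against 7.09 and 7.70 for the others of its group, while the brightest was higher by 0.28.

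Fgfr3, a main receptor for FGF9, exceeded background with 14 of 22 probe sets in each clone, where 71.2% of all probe sets with 1 symbol did. The cultures read 6.42, 6.74 and 6.42 against 6.58, 6.50 and 6.58, a difference of 0.03 (SE 0.13; 95% interval -0.27 to 0.33). Vector replicate 2 was the highest of all 6, and without both arrays the difference was 0.13 (SE 0.10).

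Fgfr4 lay at the background line. Its values were 5.79, 5.84 and 5.89 in the vector cultures and 6.09, 5.86 and 6.20 in the Meg3 cultures, so the clones overlapped by 1 culture each. Against the line, the mean stood at -0.02 in vector and 0.20 in Meg3 cultures. The clones differed by 0.21 (SE 0.13; 95% interval -0.08 to 0.51). For 1 probe set the value was 8.58 in Meg3 replicate 1 and at most 5.39 elsewhere; the brightest differed by -0.02. Without Meg3 replicate 1 the difference of the gene was 0.19, and without both arrays it was also 0.19 (SE 0.12).

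Klb was under the line in both clones, at 5.16, 5.87 and 5.14 in the vector cultures and 5.12, 5.19 and 5.24 in the Meg3 cultures. Vector replicate 2 alone reached 5.87. The difference was -0.21 (SE 0.20), but 0.03 without that array and 0.07 (SE 0.09) without both arrays, so its sign rested on that culture. Of its 6 probe sets, 2 exceeded the line in vector and 1 in Meg3 cultures.

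**Figure D2:**
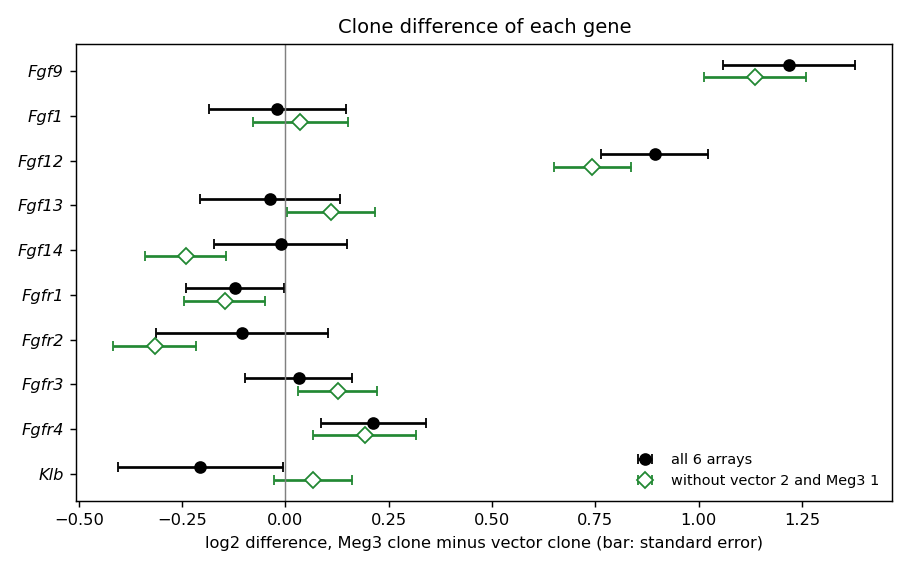
Log2 difference of each gene, Meg3 minus vector (horizontal axis), with its moderated standard error, from all 6 arrays (filled circles) and without vector replicate 2 and Meg3 replicate 1 (open diamonds). Fgf9 at 1.22 and Fgf12 at 0.89 stand apart from the other 8 genes, which lie between -0.21 and 0.21 with all arrays.

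**Figure D3:**
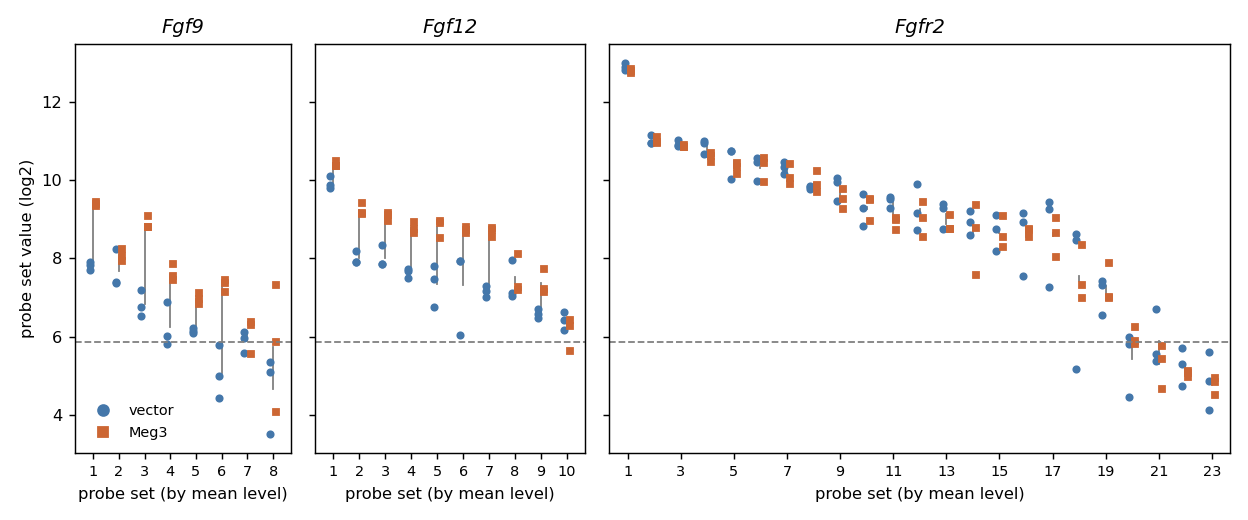
Log2 values of the single probe sets of Fgf9, Fgf12 and Fgfr2 (horizontal axis: probe set, ordered by mean level) in vector (circles) and Meg3 cultures (squares), with grey lines joining the group means and the background of 5.85 dashed. The 8 Fgf9 probe sets all have a higher Meg3 mean, 9 of 10 do for Fgf12, and 6 of 23 do for Fgfr2.

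The clones did not overlap for 2 of the 10, against 12.8% of all genes (6.41% higher, 6.39% lower). As the set was chosen with this contrast in view, nothing is read from that count. Fgf9 lies on chromosome 14 and Fgf12 on chromosome 16. Fgf14, elsewhere on chromosome 14, differed by -0.01, and by -0.24 without both arrays. Whether position bears on the differences was not tested.

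Of the other genes of the pathway, listed by role, 1 of 102 measured was called by limma, Flrt3, as lower, where 0.666% of all genes were called (0.465% lower). That share is near the one over all genes, so Flrt3 is described as a single gene and nothing is read from the count about the pathway. Flrt3 encodes a membrane protein that binds FGF receptors and supports their signalling. It read 6.49, 6.65 and 6.47 in the vector cultures and 5.85, 5.79 and 5.81 in the Meg3 cultures. Its mean was above the background line in vector cultures, at 6.54, and just under it in Meg3 cultures, at 5.82. The clones did not overlap, and the spread within each was small. Flrt3 fell 1.65-fold (log2 difference -0.72, SE 0.11; limma adjusted p = 0.0358). Its brightest 4 probe sets were each lower in all Meg3 cultures, by -1.45 to -1.03, and its 2 dimmest were higher, at log2 values under 5. Flrt3 was also called in fits that left out vector replicate 2, alone or with Meg3 replicate 1 (limma adjusted p = 0.00307 for the pair), and was not called in fits without any other single array, on centring each array, on repeated quantile normalization, with the brightest probe set and in the blocked fit, where the difference kept its sign. Over its 16 alternatives the difference ran from -1.23 to -0.66.

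The other co-receptors and binding proteins, 7 measured with Flrt3, had a median difference of 0.12, against 0.01 for all genes. Fgfrl1, Kl and Flrt1 were among those with positive values, at 0.24, 0.23 and 0.12, and were chosen after their values were seen. Kl was under the background line in both clones, at 5.21 (vector) and 5.44 (Meg3). The FLRT family member Flrt2, chosen likewise, read lower in every Meg3 culture (-0.29, SE 0.15).

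The other 17 FGF genes, listed as ligands although Fgf11 among them is of the intracellular group, had 0 called by limma. They had 0 with an unadjusted p under 0.05 (6.96% of all genes), and a median difference of 0.05, with 13 positive. Over all genes 10531 of 20416 differences were positive, and nothing is read from such counts here or in the lists below. Of the 17 genes, 8 exceeded the background line in at least 1 clone, and the others lay under it in both. Fgf18, a paracrine relative of the FGF8 group, had values of 7.09 ± 0.10 in vector and 7.10 ± 0.11 in Meg3 cultures (SD, n = 3 each). Fgf23, the phosphate-regulating hormone, stood at 6.32 ± 0.27 and 6.51 ± 0.09 (SD, n = 3 each). Fgf20 and Fgf16, the closest relatives of Fgf9, chosen after their values were seen, were under the line in both clones, at 5.22 and 5.25 and at 5.46 and 5.37. Of the family, then, Fgf9, Fgf1, Fgf12 and Fgf14 had means above the line in both clones, together with some of the other ligands.

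Heparan sulphate genes, which make and carry the sugar chain that FGFs need to bind their receptors, had 0 of 26 called by limma, 2 lower at an unadjusted p under 0.05 (median 0.03). Ext1, a chain polymerase, differed by 0.19 (SE 0.17) and Glce, an epimerase, by 0.09 (SE 0.16). For 5 the Meg3 cultures all lay lower, and for 1 higher, where 6.39% and 6.41% of all genes did. The receptor relay had 0 of 20 called by limma, 2 lower at an unadjusted p under 0.05 (median 0.02), with Ptpn11, the phosphatase SHP2, at 0.07 (SE 0.15) and the kinase gene Braf at 0.13 (SE 0.12).

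Feedback and target genes of FGF signalling had 0 of 20 called by limma, with unadjusted p-values under 0.05 for 2 higher and 2 lower genes (median -0.07, with 7 positive and 13 negative). Etv1, an ETS transcription factor gene, stood at 11.74 ± 0.21 and 11.40 ± 0.16 (SD, n = 3 each), a difference of -0.34 (SE 0.15). Phlda1 differed by 0.05 (SE 0.13). Common readouts of FGF signalling, chosen after their values were seen, were Dusp6 at -0.05 (SE 0.17), Spry4 at -0.04 (SE 0.15), Spry2 at -0.20 (SE 0.13), Etv5 at 0.41 (SE 0.16) and its close relative Etv4 at -0.31 (SE 0.17). Etv5 read higher and Etv4 lower in every Meg3 culture, but neither was called (limma adjusted p = 0.637 and 0.883), and Dusp6, Spry4 and Spry2 overlapped. Spry1 (0.10, SE 0.11) and Spred1 (0.28, SE 0.11) of the same list, chosen likewise, read higher in every Meg3 culture and were not called. Over the whole list the Meg3 cultures all lay higher for 3 genes and lower for 3, where 6.41% and 6.39% of all genes did. With vector replicate 2 and Meg3 replicate 1 left out, 7 of the 102 pathway genes were called lower and 0 higher by limma, where 4.01% and 1.43% of all genes were. Among the 7 were the feedback and target genes Egr1 (-0.57), Dusp4 (-0.68) and Il17rd (-0.44), also chosen after their values were seen, and none of these passed with all 6 arrays.

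Intracellular FGFs bind sodium channels, listed here by their pore and beta subunit genes, and the product of Mapk8ip2. These genes had 0 of 12 called by limma, 0 at an unadjusted p under 0.05 (median 0.10, with 10 positive). That each listed subunit itself binds these FGFs is not implied. Mapk8ip2, a kinase scaffold, differed by 0.15 (SE 0.36), with an SD of 0.68 in the vector clone. Scn3b, a channel beta subunit, differed by 0.27 (SE 0.17). The pore subunits Scn8a and Scn9a, chosen after their values were seen, were above background in both clones, at 6.86 and 7.13 and at 6.70 and 6.92, and Scn8a read higher in every Meg3 culture (0.27, SE 0.13). Scn1a, Scn2a and Scn3a, chosen likewise, were under the line in both clones.

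**Figure D4:**
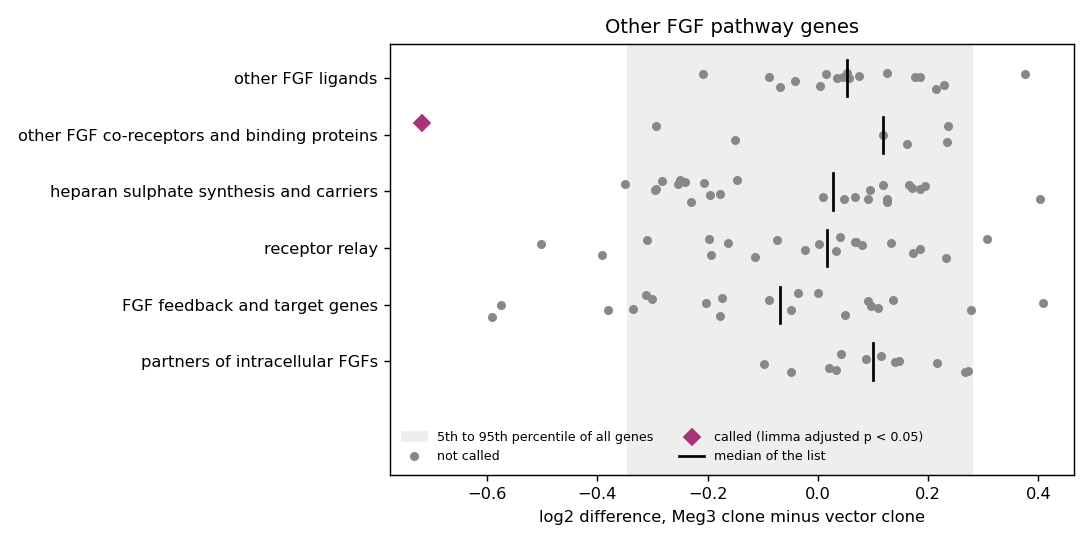
Log2 difference, Meg3 minus vector (horizontal axis), of the other FGF pathway genes by list, each point a gene, black bars the list medians, with the shaded band from the 5th to the 95th percentile of all genes (-0.34 to 0.28). Flrt3, the diamond at -0.72, is the 1 called gene.

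The genes whose profile over the 6 arrays was nearest to Fgf9, after taking off each gene's own mean, were Dach2, Kcnma1, Dnm3, Enpp3 and Inpp4b. The root mean square distance to Fgf9 was 0.17 for Dach2, a transcriptional cofactor gene, 0.18 for Kcnma1, a large-conductance potassium channel gene, and 0.19 for Dnm3, a dynamin gene. Enpp3, an ectonucleotidase gene, and Inpp4b, a phosphoinositide phosphatase gene, were at 0.20 each, against a median of 0.68 over 9496 candidate genes. Dach2 read 5.54, 5.67 and 5.58 in the vector cultures and 7.03, 6.95 and 6.93 in the Meg3 cultures. All 5 separated the clones, with differences of 0.96 to 1.38, so the likeness is mostly the step between the clones. As they were picked for nearness to Fgf9, that separation was built in. Dach2, Enpp3 and Inpp4b passed the level filter, the median of all genes at 6.66, only through the Meg3 clone. Their vector means were 5.60, 6.01 and 6.19, and that of Dach2 was under the background line. Fgf12 ranked seventh, at a distance of 0.22.

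**Figure D5:**
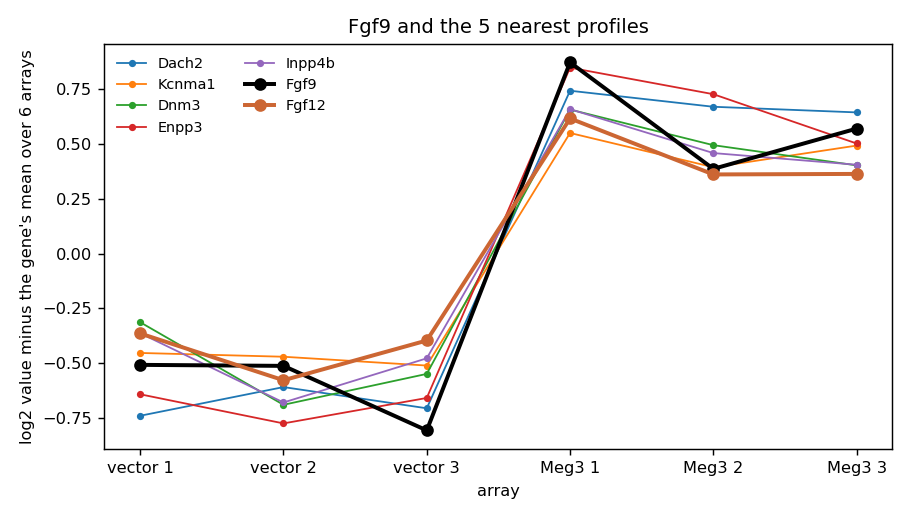
Log2 value minus the gene's own mean over the 6 arrays (vertical axis) for Fgf9, Fgf12 and the 5 genes with the nearest profile, by array (horizontal axis); lines only join the points of a gene. All 7 genes are below 0 in the vector cultures and above 0 in the Meg3 cultures.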

How the data were processed

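The table the authors deposited holds RMA log2 values of 241419 probe sets on 6 Affymetrix arrays. RMA and Partek are named per the submitters' processing notes. Their versions and the build were not given in the sources used here. Per the labels' protocols, 6 µg of total RNA per culture was labelled with biotin. Only the 212097 probe sets with 1 symbol in the array annotation were used (4475 had several, 24847 none). A gene's value was the mean of its probe sets (median 8). List genes were matched through the RefSeq gene table of GRCm38.p6 (20363 of 20416 symbols matched), and upstream windows came from RefSeq, same build.

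Tests were two-sided and used lmFit and eBayes of limma 3.58.1 (R 4.3.3) for Meg3 minus vector, without covariates, with Benjamini-Hochberg adjustment over 20416 genes. Errors of differences are moderated standard errors. The smallest two-sided p of an exact permutation test with 3 against 3 arrays is 0.1. Scripts were tested on simulated data. The genes of the set and all lists were chosen with earlier results of these data known. Named besides the set were Meg3, the called genes of each pathway list (up to 2 in each direction, by difference) or its 2 brightest where none was called, and the 5 profiles nearest to Fgf9 among genes whose higher group mean exceeded the median of all genes, without clone-derived or predicted names. The text marks any other name. Motif letters and the stretch measure were chosen after the sequences were seen. The protocols name no pairing of the cultures, so replicate numbers were not used as pairs. Correlations of deviations from the group means between cultures of the same number were -0.61, -0.63 and 0.28. With 3 cultures per group and 2 arrays that stood apart, these values cannot show whether equal numbers shared a preparation. Alternatives were a replicate block, array centring, repeated quantile normalization, a filter on dim genes, other gene summaries, other variance models, array weights and arrays left out.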

Additional observations from a re-analysis of the deposited data

How the results depend on the processing

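The Fgf9 difference ran from 1.09 to 1.57 over the 16 alternatives, the highest with the brightest probe set, and from 1.09 to 1.33 with single arrays left out. Its sign could not turn when arrays were left out, as every Meg3 culture was above every vector culture. The replicate block, the filter on dim genes and the trend and robust variance model leave the estimate at 1.22 by design. Nothing is therefore read from the kept sign. With a replicate block, for which the labels give only numbers, 11 genes were called higher and 19 lower, with 0 pathway genes. The fit without it called 41 and 95. The brightest probe set gave 12 higher, 28 lower and 0 pathway genes, and the median of probe sets 16 higher and 42 lower. Centring and quantile normalization each left 0 pathway genes called. Array weights, whose estimation stopped before its tolerance was reached, gave 1063 higher, 1619 lower and 18 pathway genes. Without vector replicate 2 and Meg3 replicate 1 there were 292 higher, 819 lower and 7 pathway genes. With single arrays left out, 8 to 78 genes were called higher, 14 to 271 lower and 0 to 1 pathway genes (limma throughout; with all arrays 1420 genes had an unadjusted p under 0.05). The fewest calls came without Meg3 replicate 3 and the most without vector replicate 2. Of the set, 8 genes exceeded the background line in at least 1 clone, and 5 with the 99th percentile (a log2 value of 6.82) in its place. Fgf9 exceeded this higher line in the Meg3 clone only, and Fgfr1 and Fgfr3 in neither clone. Signal near the background line limits what can be read from Fgfr4, Fgf13 and Klb, and from Fgf9 in the vector clone.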
